A study of Mus musculus with 6 samples.

Results

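The genes of platelet-derived growth factor (PDGF) signalling were followed in lung fibroblasts (LFBs) that lost Atf4. A gene entered when the platform annotation paired at least 1 transcript cluster (a set of array probes summarised as 1 value) with that gene alone. This gave 6 members of 30098 genes measured in this way: the ligands Pdgfa, Pdgfb, Pdgfc and Pdgfd, the receptor Pdgfrb and the receptor-like gene Pdgfrl. Each had a single such cluster. The cluster of Pdgfra, the other signalling receptor, names several symbols and was not used, so no value is given for that receptor.

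The study compared cultured lung fibroblasts from Atf4D/D mice (LFBD/D) with those from Atf4wt/wt mice (LFBwt/wt), with 3 Clariom D arrays in each group, as a check in isolated cells of what its single-cell data had shown for fibroblast activation and collagen RNAs. ATF4 is the main transcription factor of the integrated stress response, by which cells raise the supply of amino acids under stress. Mice of both genotypes carried the tamoxifen-inducible CreERT2 at the ubiquitously active Rosa26 locus and received tamoxifen. The mice with deleted Atf4 also carried loxP sites on both sides of the removed exons. The fibroblasts came from digested lungs of young adult mice of both sexes and were grown to passage 2. The study's methods name hydroxytamoxifen in the medium. They also describe tissue of several mice digested together. The study calls the deletion in its mice efficient but not total. The sample labels call the replicates biological. The sources used here do not say if the cultures of a group came from different mice. The p-values therefore rest on the variation among these cultures, which may not reflect the variation among mice.

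Over all 65956 clusters, the median log2 value of an array was 4.87 to 4.91, and arrays correlated at 0.997 to 0.998 within a group and at 0.988 to 0.993 between groups. Atf4 itself was at 7.73, 7.49 and 7.48 in LFBD/D and at 8.67, 8.95 and 8.73 in LFBwt/wt, so each array matched its label. Where the probes lie relative to the removed exons was not examined. Of all clusters 4.85% passed the thresholds used throughout, an adjusted p of at most 0.05 in limma and a fold change above 1.5, and of the 30098 genes 6.88% passed.

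PDGFs are dimeric growth factors of mesenchymal cells. PDGF-A and PDGF-B are trimmed inside the cell by furin-like convertases, whereas PDGF-C and PDGF-D leave the cell with an inhibitory CUB domain that an extracellular protease must remove. PDGF-B and PDGF-D act through PDGF receptor beta, and PDGF-A and PDGF-C mainly through PDGF receptor alpha. In the lung, PDGF-A directs the fibroblasts that form alveolar walls, and PDGF-B from endothelium recruits pericytes. The study uses Pdgfrb as a marker of activated fibroblasts and reported it as reduced in LFBD/D from its microarrays. In melanoma tumours of Atf4D/D mice it also reported less Pdgfrb RNA in tumour fibroblasts and less PDGF receptor beta staining.

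The RefSeq promoter table (assembly GRCm38.p6, from 250 bases before to 50 after each start) held windows for 3 of the 6 members, with 2 starts for Pdgfa. They are shown because the comparison is of cells with and without ATF4, and the DNA element that ATF4 binds with its C/EBP partners can be looked for in them. The core of that element was searched as TGATGNAA on both strands. The 250 bases before the start are given for Pdgfc at chr3:81036166-81036415 on the plus strand, for the outer Pdgfa start at chr5:138994945-138995194 on the minus strand and for Pdgfd at chr9:6168236-6168485 on the plus strand. As an example that holds the core, 30 bases before the start of Asns, the asparagine synthetase gene and a well-known ATF4 target, are given at chr6:7693215-7693244 on the minus strand. Capitals mark the matches to the ATF4 core, to the GC box CCGCCC and to the TATA box TATAAA.
Pdgfc: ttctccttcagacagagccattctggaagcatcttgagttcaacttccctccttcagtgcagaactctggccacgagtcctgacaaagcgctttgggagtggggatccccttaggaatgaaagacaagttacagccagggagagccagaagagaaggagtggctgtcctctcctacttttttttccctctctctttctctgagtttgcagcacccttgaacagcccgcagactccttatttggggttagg
Pdgfa: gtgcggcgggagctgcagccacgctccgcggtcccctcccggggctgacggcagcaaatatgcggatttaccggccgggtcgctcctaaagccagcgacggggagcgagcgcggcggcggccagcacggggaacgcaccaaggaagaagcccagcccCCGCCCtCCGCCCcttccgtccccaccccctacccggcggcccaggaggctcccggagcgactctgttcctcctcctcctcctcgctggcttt
Pdgfd: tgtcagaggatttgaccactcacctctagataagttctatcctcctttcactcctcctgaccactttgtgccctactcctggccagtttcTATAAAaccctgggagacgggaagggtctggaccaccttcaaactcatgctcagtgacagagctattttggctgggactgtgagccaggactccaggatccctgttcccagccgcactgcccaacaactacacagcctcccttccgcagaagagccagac
Asns: gtcccagccacaTGATGAAActtcccgcac
The ATF4 core was in 0 of the 4 member windows, and in 3.97% of all 32851 windows of this table. The printed Pdgfa stretch was GC-rich, at 72.4%, and held 2 neighbouring GC boxes, which 35.7% of all windows hold at least once. The other Pdgfa start had 1 GC box in a stretch of 66.4% GC. Pdgfc, at 50.8% GC, held none of the 3 motifs. Pdgfd, at 53.6% GC, held the letters TATAAA 160 bases before its start, as 13.6% of all windows do somewhere. No 2 of these matches overlapped. The GC and TATA boxes were picked after the windows had been seen. The presence or absence of a match says only whether these letters are in this window, and no function of a match is claimed.

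Of the 6 members, 4 passed the thresholds: Pdgfb was higher in LFBD/D, and Pdgfc, Pdgfrb and Pdgfrl were lower. Among all genes 3.92% passed as higher and 2.96% as lower. The values of LFBD/D and LFBwt/wt did not overlap in these 4 members, a property that 37.7% of all genes share. Pdgfa and Pdgfd did not pass, and their groups overlapped. Array signals depend on the probes, so levels are compared between groups of arrays and not between genes.

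**Figure D1:**
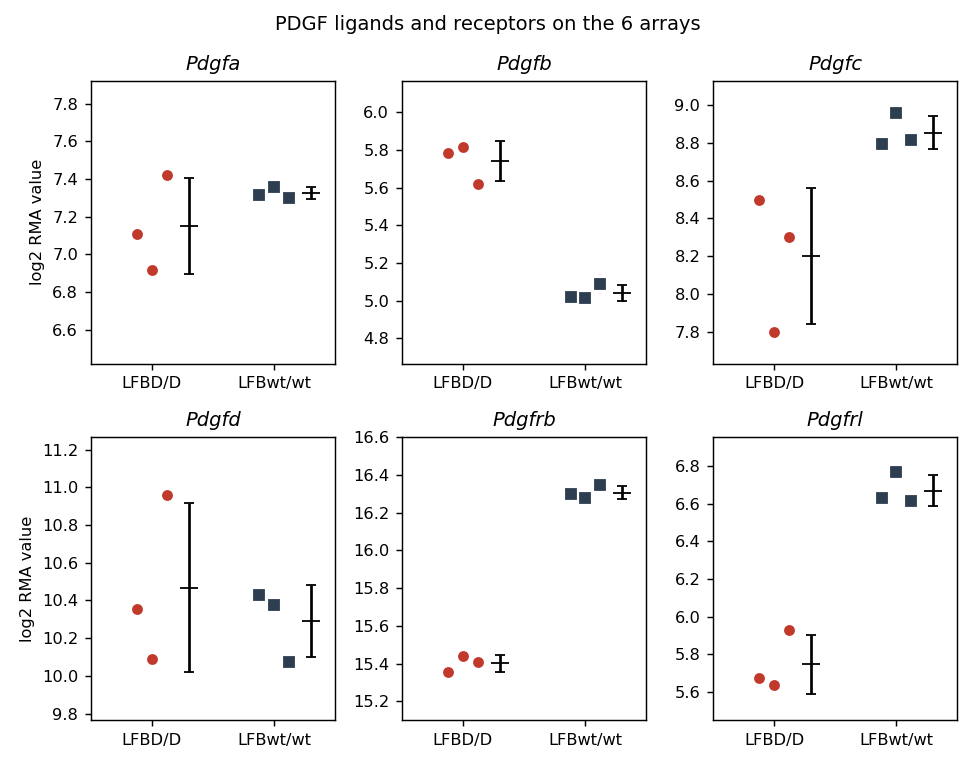
Log2 RMA value of each PDGF gene on the 3 LFBD/D arrays (red circles) and the 3 LFBwt/wt arrays (dark squares), with the mean and SD beside the points; each panel has its own axis. Pdgfrb was at 15.35 to 15.44 in LFBD/D and at 16.28 to 16.35 in LFBwt/wt, whereas the Pdgfd groups overlapped.

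Pdgfb, the ligand of both PDGF receptors, was the member that rose. Its log2 values were 5.79, 5.82 and 5.62 in LFBD/D and 5.02, 5.02 and 5.09 in LFBwt/wt. The lowest LFBD/D culture thus stood above the highest LFBwt/wt culture, though both groups stayed close to the array medians of 4.87 to 4.91. The difference was 0.70 (s.e. 0.07, 95% interval 0.54 to 0.86), or 1.62-fold (limma adjusted p = 0.000923). The interval reached below the fold threshold.

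Pdgfc, a ligand that needs extracellular cleavage, was lower in LFBD/D. It was at 8.50, 7.80 and 8.30 in LFBD/D and at 8.79, 8.96 and 8.81 in LFBwt/wt. The LFBD/D cultures were spread (8.20 ± 0.36, SD, n = 3), the LFBwt/wt cultures close together (8.86 ± 0.09, SD, n = 3), and replicate 2 of LFBD/D lay lowest. The difference of -0.66 (s.e. 0.17, 95% interval -1.04 to -0.27), a 1.57-fold lower level, had an adjusted p of 0.0424 in limma, just inside the threshold. Without LFBD/D replicate 2 it was -0.45, below the fold threshold. Without LFBD/D replicate 3 or any 1 of the 3 LFBwt/wt cultures it lay between -0.71 and -0.60, with adjusted p between 0.0764 and 0.136 in limma.

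Pdgfa, the ligand of alveolar fibroblast precursors, was at 7.11, 6.92 and 7.42 in LFBD/D and at 7.32, 7.36 and 7.30 in LFBwt/wt. The highest single value was in an LFBD/D culture, and the other LFBD/D cultures lay below all LFBwt/wt cultures. The difference was -0.18 (s.e. 0.12, 95% interval -0.46 to 0.11, limma adjusted p = 0.449), so a fall of up to 0.46 was within the interval.

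Pdgfd, the ligand that prefers the beta receptor, was at 10.35, 10.09 and 10.96 in LFBD/D and at 10.43, 10.38 and 10.07 in LFBwt/wt. The highest value was in an LFBD/D culture and the lowest in an LFBwt/wt culture, and the groups overlapped. The difference of 0.18 (s.e. 0.21, 95% interval -0.33 to 0.68, limma adjusted p = 0.706) was carried by LFBD/D replicate 3, without which it was -0.071. Pdgfd had the widest interval of the 6 members.

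Pdgfrb, the receptor tyrosine kinase of pericytes and activated fibroblasts, was the clearest change of the family. It was at 15.35, 15.44 and 15.41 in LFBD/D and at 16.30, 16.28 and 16.35 in LFBwt/wt. Both groups were tight (15.40 ± 0.04 in LFBD/D and 16.31 ± 0.04 in LFBwt/wt, SD, n = 3 each), and the gap between them was many times the spread. The difference was -0.91 (s.e. 0.05, 95% interval -1.03 to -0.78), or 1.87-fold lower in LFBD/D (limma adjusted p = 0.000181). By p it was number 164 of the 65956 clusters. In a mixed culture, fewer cells that express a gene and less of its RNA per cell cannot be told apart, which holds for every gene here.

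Pdgfrl encodes a protein that resembles the outer part of a PDGF receptor and has no kinase. It was at 5.68, 5.64 and 5.93 in LFBD/D and at 6.63, 6.77 and 6.61 in LFBwt/wt. Every LFBD/D culture was below every LFBwt/wt culture, and the LFBD/D values lay close to the array medians of 4.87 to 4.91. The difference of -0.92 (s.e. 0.09, 95% interval -1.13 to -0.71), or 1.89-fold lower, had an adjusted p of 0.000933 in limma.

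**Figure D2:**
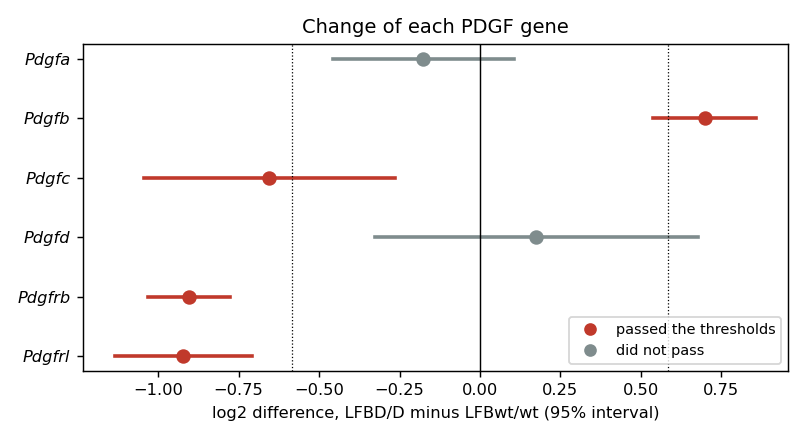
Log2 difference of LFBD/D minus LFBwt/wt for each PDGF gene (point) with its 95% interval from limma (line); dotted lines mark a fold change of 1.5 and the solid line marks 0. Of the 4 genes that passed (red), Pdgfrb and Pdgfrl have intervals wholly below the dotted line, and those of Pdgfb and Pdgfc cross it.

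The members were also compared with each other within each array, over all 15 pairs. With 3 arrays against 3, the exact two-sided permutation test cannot go below 0.1, and after adjustment over the 15 pairs the smallest p was 0.136. The ratio of Pdgfb to Pdgfrb RNA changed by 1.60 on the log2 scale: the difference of their log2 values was -9.57, -9.63 and -9.79 in LFBD/D and -11.28, -11.26 and -11.26 in LFBwt/wt (exact p = 0.1). Pdgfb alone was higher and Pdgfrb alone lower without overlap, so their difference had to separate the groups and adds no evidence. Of all 15 pairs, 11 had groups that did not overlap, and the share among pairs of all genes was not computed. Among genes taken alone, 37.7% had groups that did not overlap. The ratio of Pdgfd to Pdgfrb gained 1.08 and also did not overlap between groups (exact p = 0.1), as Pdgfrb alone did not. Of the CUB-domain ligands, the ratio of Pdgfc to Pdgfd changed by -0.83, and the groups did not overlap (exact p = 0.1), as those of Pdgfc alone did not. Pdgfrb and Pdgfrl moved by nearly the same amount, their difference changing by 0.02 (exact p = 0.9), though Pdgfrl in LFBD/D lay close to the array medians.

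Around these shifts several members had their lowest LFBD/D value in the same culture. How often this holds among all genes was not computed. Pdgfa, Pdgfc, Pdgfd and Pdgfrl each had their lowest LFBD/D value in replicate 2, with deviations from the group mean of -0.40 to -0.11. Pdgfa, Pdgfd and Pdgfrl had their highest in replicate 3, with deviations of 0.18 to 0.49, whereas Pdgfc had its highest in replicate 1, at 0.30. Pdgfb ran the other way, with replicate 2 highest and replicate 3 lowest, and Pdgfrb varied by at most 0.05.

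Proteases listed for ligand processing and activation showed a sharper contrast than the ligands. Of the 8 genes of this list, all measured, 1 was higher, 3 were lower and 4 did not pass. Over all genes 3.92% passed as higher and 2.96% as lower. The median difference of the list was 0.03, against 0.02 over all genes. Plat encodes tissue plasminogen activator, which cleaves PDGF-C. It was at 8.81, 8.92 and 8.84 in LFBD/D and at 11.63, 11.60 and 11.54 in LFBwt/wt, 6.65-fold lower (log2 difference -2.73, s.e. 0.06, limma adjusted p = 5.62e-06). Pdgfc and Plat were thus both lower in the LFBD/D cultures.

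Plau encodes urokinase, which activates PDGF-D. It was at 13.56, 12.54 and 12.69 in LFBD/D and at 10.32, 10.33 and 10.32 in LFBwt/wt, 6.07-fold higher (log2 difference 2.60, s.e. 0.24, limma adjusted p = 0.000718). St14, which encodes matriptase, another activator of PDGF-D, had separate groups too, at 6.04, 5.90 and 5.94 in LFBD/D and at 5.44, 5.35 and 5.35 in LFBwt/wt. Its difference of 0.58 (limma adjusted p = 0.0013) stayed just under the fold threshold. The activators of the CUB-domain ligands therefore differed in direction, Plat being lower and Plau higher, while the RNA of Pdgfd did not pass.

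Among the furin-like convertases, Pcsk6 had a log2 difference of -1.03, at 6.01, 5.75 and 6.01 in LFBD/D and at 6.77, 6.91 and 7.17 in LFBwt/wt (limma adjusted p = 0.00174). Mmp14, a membrane-bound metalloprotease of the cell surface, was lower, at -0.81 (limma adjusted p = 0.000901). It is on the list as a protease of the cell surface, and no cutting of PDGF ligands by it is claimed. Furin, Pcsk5 and Pcsk7 had differences of 0.05, 0.18 and 0.00 and did not pass.

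**Figure D3:**
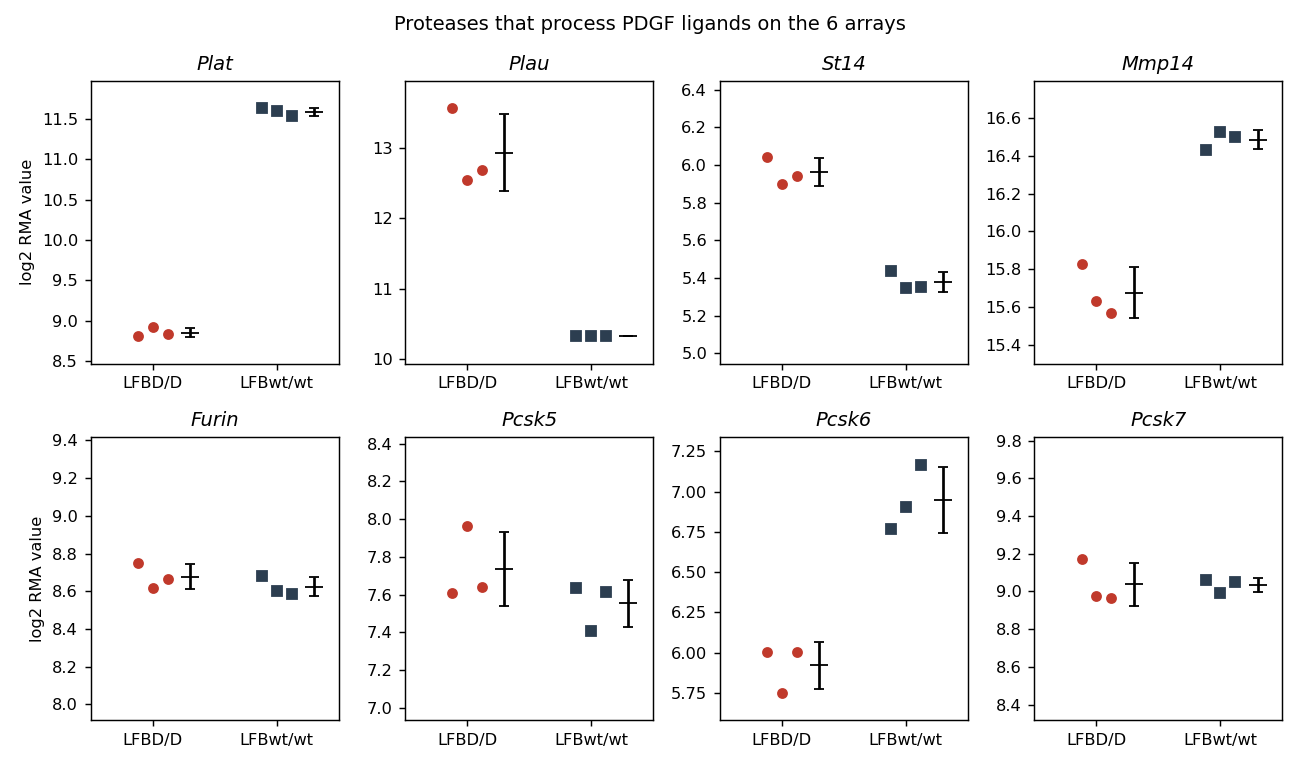
Log2 RMA value of the 8 protease genes listed for PDGF ligand processing and activation. The 3 LFBD/D arrays are red circles and the 3 LFBwt/wt arrays dark squares, with mean and SD beside the points. Each panel has its own axis. Plat was at 8.81 to 8.92 in LFBD/D and 11.54 to 11.63 in LFBwt/wt, and Plau at 12.54 to 13.56 in LFBD/D and 10.32 to 10.33 in LFBwt/wt.

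Genes listed as binding partners of PDGFs or their receptors were mixed. Of 11 measured genes of 12 listed, 2 were higher, 4 were lower and 5 did not pass. Over all genes 3.92% passed as higher and 2.96% as lower. The median difference of the list was -0.41, against 0.02 over all genes. Hspg2, which encodes the basement membrane proteoglycan perlecan, was at 11.22, 11.18 and 11.30 in LFBD/D and at 12.63, 12.77 and 13.39 in LFBwt/wt (log2 difference -1.70, limma adjusted p = 0.00136). A2m, the protease inhibitor alpha-2-macroglobulin that carries PDGF-B, was 3.23-fold lower and Gas1, a membrane-anchored growth arrest protein, 2.94-fold lower. Gas1 and Ndnf, which also passed as lower, are counted with the list, and no binding of PDGFs or their receptors by them is claimed. In LFBD/D A2m was at 4.86 to 5.10, near the array medians, against 6.48 to 6.94 in LFBwt/wt. Nrp2, a co-receptor of growth factors and semaphorins, was 2.18-fold higher, and the integrin subunit gene Itgb3 1.62-fold higher, though without LFBD/D replicate 1 its difference was 0.55, below the fold threshold. Sparc, a matrix protein that binds PDGF-B, differed by -0.41 and did not reach the fold threshold.

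Of the kinases structurally closest to the PDGF receptors, the class III receptor tyrosine kinases, 3 of 4 were measured. Csf1r was the 1 that passed, where 6.88% of all genes did. Csf1r encodes the receptor that macrophages need. It was at 13.24, 12.41 and 12.58 in LFBD/D and at 9.43, 9.32 and 9.60 in LFBwt/wt (log2 difference 3.29, limma adjusted p = 0.000203). Kit and Flt3 had differences of 0.13 and 0.00.

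Genes of the first steps after the receptor differed in both directions. Of 25 measured of 26 listed, 1 was higher, 3 were lower and 21 did not pass, with a median difference of -0.05. Over all genes 3.92% passed as higher and 2.96% as lower. Slc9a3r1 encodes NHERF1, a scaffold that binds the tail of PDGF receptor beta. It was at 9.75, 9.47 and 9.84 in LFBD/D and at 11.43, 11.70 and 12.10 in LFBwt/wt (log2 difference -2.06, s.e. 0.17, limma adjusted p = 0.000538), and so was lower in the same cultures as the receptor. Pik3cb, a catalytic subunit of phosphoinositide 3-kinase, was at 10.53, 10.11 and 10.66 in LFBD/D and at 9.16, 9.09 and 9.01 in LFBwt/wt, 2.54-fold higher. The adaptor gene Grb10 was 1.78-fold lower. The adaptor gene Gab1 was 1.57-fold lower, but without LFBD/D replicate 1 its difference was -0.54, below the fold threshold. Other genes of the list, named here after their values had been seen, stayed under the fold threshold at adjusted p between 0.00215 and 0.0393 in limma. Of these, the kinase gene Fyn (0.47) and the adaptor genes Grb2 (0.42) and Crkl (0.25) had positive differences, and the adaptor gene Shc1 (-0.55), the regulatory subunit gene Pik3r1 (-0.43) and the transcription factor gene Stat3 (-0.32) negative ones. Src, Ptpn11, Pik3ca and Plcg1, also picked after their values had been seen, differed by 0.02, -0.06, -0.05 and -0.23 at adjusted p above the threshold.

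Genes that restrain receptor signalling leaned upwards. Of 18 measured of 19 listed, 5 were higher, 1 was lower and 12 did not pass. Over all genes 3.92% passed as higher and 2.96% as lower. The median difference of the list was 0.39, against 0.02 over all genes. Dusp6, a phosphatase that switches off ERK, was at 11.36, 10.76 and 11.00 in LFBD/D and at 9.78, 10.01 and 9.86 in LFBwt/wt, 2.23-fold higher (limma adjusted p = 0.00267). Dusp5, a nuclear ERK phosphatase, was 1.75-fold higher, and Ptprj, a receptor phosphatase that acts on PDGF receptor beta, 1.74-fold higher. Socs3, an inhibitor of cytokine signalling, was the 1 that was lower, at a log2 difference of -0.71.

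Of 24 measured of 25 listed early genes that PDGF induces in fibroblasts, 8 were higher and 0 were lower. Over all genes 3.92% passed as higher and 2.96% as lower. The median difference of the list was 0.48, against 0.02 over all genes. Ccl2, a monocyte-attracting chemokine first known as a PDGF-induced gene of mouse fibroblasts, was at 13.20, 13.13 and 13.04 in LFBD/D and at 10.56, 10.65 and 10.73 in LFBwt/wt. It was 5.57-fold higher (limma adjusted p = 1.69e-05), and the related chemokine gene Ccl7 was 3.71-fold higher. Ier3, a stress and growth factor response gene, was 2.27-fold higher. The transcription factor genes Fosl1, Egr2, Nr4a1 and Myc passed as well, at 2.02-, 1.82-, 1.79- and 1.60-fold, and the urokinase receptor gene Plaur at 1.66-fold. Plaur did not pass when 1 culture was left out, with the exception of LFBD/D replicate 2, at differences of 0.60 to 0.77. Egr1 and Fos, classic early response genes, had differences of -0.11 and 0.50 and did not pass. Many of these genes answer to other stimuli and are expressed by other cells, macrophages among them.

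**Figure D4:**
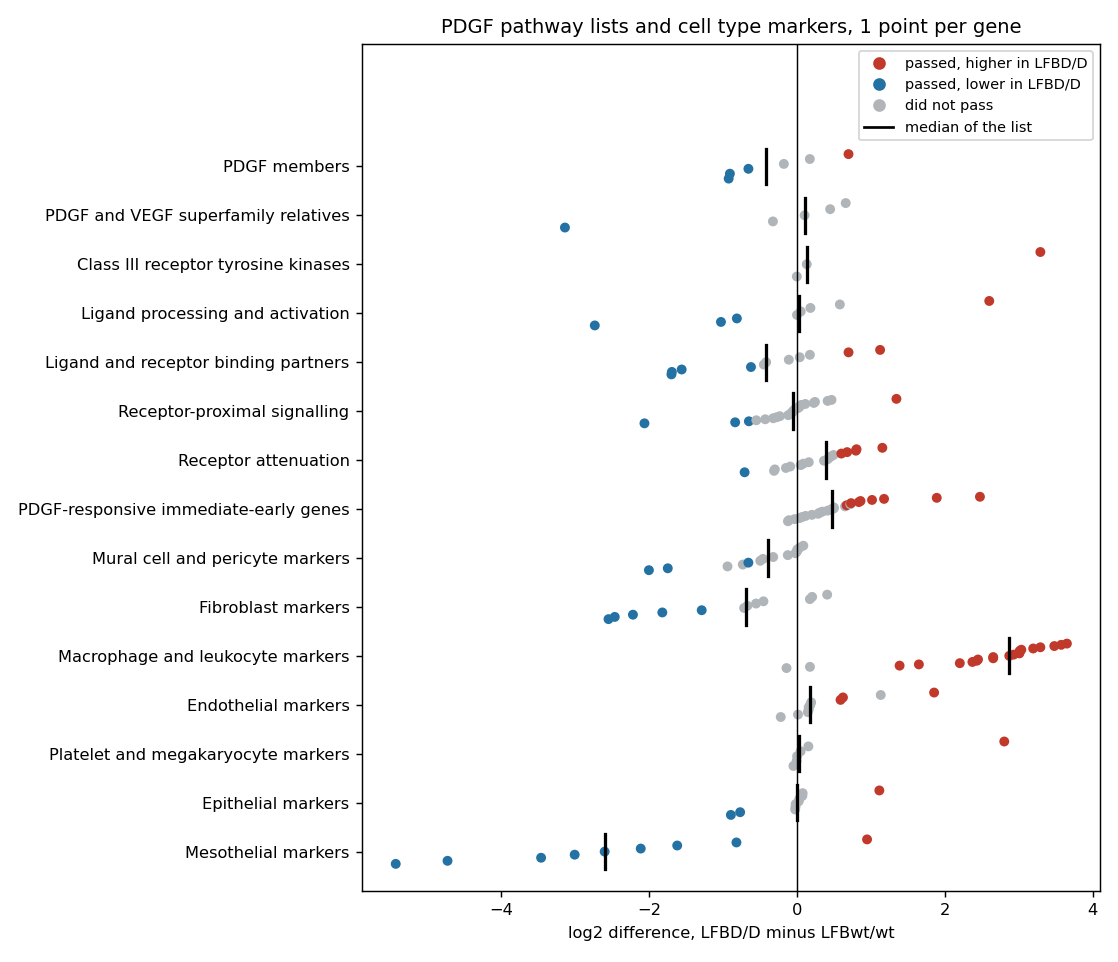
Log2 difference of LFBD/D minus LFBwt/wt for each gene of the PDGF lists and of the cell type marker lists (1 point per gene; red passed as higher in LFBD/D, blue passed as lower, grey did not pass; black bar, median of the list). The leukocyte markers lie to the right with a median of 2.87, and the mesothelial markers to the left with a median of -2.60.

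Markers of several cell types moved between the same arrays. For this and the other marker lists, the shares over all genes were 3.92% higher and 2.96% lower. Of 21 measured leukocyte and macrophage markers of 23 listed, 19 were higher and 0 lower, with a median difference of 2.87 (7.33-fold), and their mean level was 12.17 to 12.61 in LFBD/D and 9.72 to 10.16 in LFBwt/wt. The macrophage genes Adgre1, Itgam and Tyrobp had log2 differences of 3.65, 3.58 and 3.48. Of 11 measured endothelial markers of 12 listed, 3 were higher, Emcn by 1.86, Pecam1 by 0.62 and Vwf by 0.59. Their mean level was 5.67 to 5.86 in LFBD/D and 5.22 to 5.40 in LFBwt/wt, and without LFBwt/wt replicate 2 only Emcn passed. Pecam1 also did not pass without LFBD/D replicate 2 or 3 or LFBwt/wt replicate 1, nor Vwf without LFBD/D replicate 1 or LFBwt/wt replicate 3, at differences of 0.50 to 0.64 in these settings. Of 6 measured platelet markers of 8 listed, Pf4 alone was higher, by 2.81, and Ppbp, Itga2b, Gp9, Treml1 and Gp6 lay between 3.98 and 5.20 on all arrays. Macrophages, endothelium and platelets are known sources of PDGF-B, and the part of macrophages and endothelium in the higher Pdgfb was not tested.

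In the other direction, 8 of 9 mesothelial markers, all measured, were lower and 1 was higher, with a median difference of -2.60 (6.06-fold). The 1 that was higher was the keratin gene Krt19 (0.95), which epithelial cells also express and which, with any 1 culture other than LFBD/D replicate 2 left out, did not pass, at differences of 0.79 to 0.97. Their mean level was 5.94 to 6.27 in LFBD/D and 8.35 to 8.94 in LFBwt/wt, and Lrrn4, Upk3b and Gpm6a had differences of -5.43, -4.73 and -3.46. Of 12 fibroblast markers 5 were lower and 0 higher, with a median of -0.69 and a mean level of 12.44 to 12.83 in LFBD/D and 13.55 to 13.65 in LFBwt/wt. The collagen genes Col3a1, Col1a2 and Col1a1 had differences of -2.55, -2.46 and -2.22, whereas the general mesenchymal genes Vim and Dcn differed by 0.21 and 0.18 and did not pass. Fibroblast markers were thus present in both groups. Of 10 measured epithelial markers of 11 listed, Cdh1 was higher by 1.12, Krt18 and Krt8 were lower, at differences of -0.89 and -0.77, and Sftpc, which defines alveolar type II cells, was at 3.66 to 3.77 on all arrays. Krt8 did not pass without LFBD/D replicate 1 or LFBwt/wt replicate 2 or 3, at differences of -0.73 to -0.68.

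Pericytes and smooth muscle cells are the cells best known for Pdgfrb. Of 14 mural cell markers, all measured, 3 were lower and 0 higher, with a median difference of -0.39 and a mean level of 8.59 to 9.01 in LFBD/D and 9.26 to 9.43 in LFBwt/wt. Des, the intermediate filament gene of muscle and pericytes, was 3.35-fold lower and Abcc9, a channel subunit gene of pericytes, 1.58-fold lower. Ndufa4l2, a mitochondrial gene high in pericytes, was lower (log2 difference -2.00), at 8.68, 8.03 and 9.90 in LFBD/D and 11.22, 10.94 and 10.46 in LFBwt/wt, but did not pass without LFBD/D replicate 1 (-1.91) or LFBwt/wt replicate 1 (-1.83) or 2 (-1.97). The defining pericyte genes Rgs5, Cspg4 and Higd1b lay between 4.47 and 4.75 on all arrays, below the array medians, and Acta2, the smooth muscle and myofibroblast actin, differed by 0.00. The part of mesothelial, fibroblast and mural cells in the lower Pdgfrb, Pdgfrl and Pdgfc was not tested.

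Pdgfb lies on chromosome 15, as Atf4 does, with 5 protein-coding genes of the RefSeq order between them. Of the 4 that were measured, Syngr1, a synaptic vesicle gene, was higher (log2 difference 0.69), Mgat3, a glycosyltransferase gene, was lower (-0.98), and Tab1 and Mief1 differed by -0.13 and -0.06 and did not pass. Without LFBD/D replicate 1 Syngr1 differed by 0.57, below the fold threshold. On the far side of Atf4, the calcium channel gene Cacna1i was at 11.96, 11.79 and 11.53 in LFBD/D and at 5.32, 5.18 and 5.19 in LFBwt/wt (log2 difference 6.53, limma adjusted p = 2.44e-06), and Rps19bp1 was lower (-1.06). Enthd1, Grap2 and Fam83f, also on that side, differed by 0.01, 0.07 and 0.24 and did not pass. Of the 12 measured genes listed around Atf4, Atf4 included, 2 were higher, 3 were lower and 7 did not pass. The shares over all genes were 3.92% higher and 2.96% lower. Thus some genes on both sides of the deleted gene differed between genotypes. Whether the position of Pdgfb plays a part in its difference was not tested. The other members lie on chromosomes 3 (Pdgfc), 5 (Pdgfa), 8 (Pdgfrl), 9 (Pdgfd) and 18 (Pdgfrb).

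For each member that passed, the genes with the most similar profile were found by the Euclidean distance between the 6 array values after removal of each gene's mean, in log2 units. Nearest to Pdgfrb were Ankrd55, Ccdc141 and Gm11747, at distances of 0.11 each. Nearest to Pdgfrl were Pir, Pcdh11x and Mboat1, at 0.12, 0.13 and 0.16, and nearest to Pdgfb were Gm6977, Arhgef3 and Rrp12, at 0.04, 0.11 and 0.12. Pdgfc, with its wider spread among LFBD/D cultures, had P4ha2, Npr3 and Cpe as its nearest, at 0.22, 0.26 and 0.27. These distances are a description over 6 arrays in 2 groups and carry no test.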

How the data were processed

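RNA of LFBD/D and LFBwt/wt cultures was hybridised to Clariom D mouse arrays, 1 per culture and 3 per group, with groups taken from the labels. The authors deposited log2 values, made by robust multi-array averaging (RMA, which includes quantile normalisation across arrays) with default settings of the Transcriptome Analysis Console version 4. Values went up to 18.88, above the log2 ceiling of 16 of a 16-bit scanner, so folds hold on the deposited scale only. The array annotation version is not given in the sources used here.

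Of 65956 clusters, 30638 named 1 gene symbol, 2176 several and 33142 none. Symbols were updated through the RefSeq table of GRCm38.p6, and the brightest cluster stood for each of 30098 genes. limma 3.58.1 (R 4.3.3) fitted every cluster by genotype alone, and Benjamini-Hochberg adjustment covered the whole array. Passing required both an adjusted p no higher than 0.05 and more than a 1.5-fold change, as in the study's methods. Standard errors and 95% intervals are limma's, and SDs are over 3 arrays. The procedure was tested on simulated data.

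The members and the gene lists (191 of 204 genes measured) were chosen with earlier results of these data known. Named genes were the members, Atf4, up to 3 genes that passed with the largest change per list, and the 3 genes of most similar profile per member that passed; others were named after their values had been seen. The labels give a replicate number and no pairing, and deviations of same-numbered replicates from their group means were not positively correlated. No pairing was used. The alternatives tried were Student's t-test per cluster, a filter on dim clusters, trend and robust eBayes, 2 other normalisations, a replicate block, leaving out each array, the mean over a gene's clusters, adjustment over clusters with 1 gene, adjusted p alone, and limma's treat. The number of arrays limits the precision.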

Additional observations from a re-analysis of the deposited data

How the results depend on the processing

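Pdgfrb passed in all 16 alternatives, with differences of -1.03 to -0.88. Pdgfb and Pdgfrl passed in 15 of 16 and Pdgfc in 7 of 16, and Pdgfa and Pdgfd in 0 of 16, Pdgfa at -0.31 to -0.06. Under treat, which tests against the 1.5-fold change itself, 1 member passed (Pdgfrb, adjusted p = 0.0233), and Pdgfb (0.70, adjusted p = 1), Pdgfrl (-0.92, adjusted p = 0.189) and Pdgfc (-0.66, adjusted p = 1) did not. Pdgfc was also lost under Student's t-test per cluster (-0.66, adjusted p = 0.197) and with arrays centred on their medians (-0.64, adjusted p = 0.055). Leaving out 1 array gave Pdgfc differences of -0.80 to -0.45 and it passed only without LFBD/D replicate 1. The same settings gave Pdgfd -0.071 to 0.37, the negative value without LFBD/D replicate 3.

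The replicate block left Pdgfc at -0.66 with an adjusted p of 0.0825, so that it no longer passed, and changed no other member. Of all clusters 3060 passed with the block, against 3199 without it. Same-numbered replicates had deviations correlated at -0.04, -0.01 and -0.22, against -0.14 to 0.19 for different numbers, so they share only a number.

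Of all clusters, 1647 passed under Student's t-test per cluster, 2081 after quantile normalisation over clusters with 1 gene, 2111 with adjustment over those clusters, 8542 at the adjusted p alone and 887 under treat, and 2663 to 3375 with 1 array left out. The single-gene settings test fewer clusters. Of the 81 list genes that passed, Student's t-test per cluster lost 24, treat 33 and the block 3, and in no alternative did one pass in the opposite direction. The cause of the other changes was not tested. Pdgfb, and Pdgfrl in LFBD/D, lie close to the array medians, where a change of RNA may be understated.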

Other observations

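The vascular endothelial growth factors are the closest relatives of the PDGF ligands. Of 5 genes, all measured, 1 passed, where 6.88% of all genes did. That gene was Vegfd, a factor that acts on lymphatic and blood vessels. It was at 11.68, 13.45 and 13.18 in LFBD/D and at 15.77, 15.90 and 16.06 in LFBwt/wt, 8.80-fold lower (log2 difference -3.14, s.e. 0.41, limma adjusted p = 0.00315). Every LFBD/D culture was below every LFBwt/wt culture, with replicate 1 of LFBD/D lowest. Vegfa, the main angiogenic factor, differed by -0.32 and Vegfb by 0.45, both under the fold threshold, and Vegfc by 0.11 with overlapping groups. Pgf, placental growth factor, was at 9.83, 8.83 and 9.52 in LFBD/D and at 8.69, 8.82 and 8.68 in LFBwt/wt, with an adjusted p of 0.113. Without LFBD/D replicate 2, the count of these relatives that passed was 2.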
